A study of Mus musculus with 12 samples.

Results

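NRF2, encoded by Nfe2l2, its inhibitor KEAP1 and 7 of their antioxidant target genes were followed in mRNA sequenced from mouse kidney glomeruli. The genes were chosen by symbol, and all 9 were found, each as 1 entry, among the 14096 genes listed for every mouse. They are Nfe2l2 and Keap1, the glutathione genes Gclc, Gclm and Gsr, the quinone and heme enzymes Nqo1 and Hmox1, and the thiol enzymes Txnrd1 and Srxn1.

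NRF2 is a transcription factor that is held at a low level in unstressed cells because KEAP1 brings it to a ubiquitin ligase for degradation. Oxidants and electrophiles modify cysteines of KEAP1, NRF2 then accumulates in the nucleus, pairs with a small MAF protein and binds antioxidant response elements near its target genes. Because this switch acts on the protein, the level of Nfe2l2 mRNA need not change when the pathway is switched on, and the mRNA of the targets is the usual readout. In the diabetic kidney the pathway is studied as a defence against oxidative stress.

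The mice were male eNOS-/- animals on the C57BL/6J strain, so every group lacked endothelial nitric oxide synthase. Diabetes was induced at an age of 8 weeks with streptozotocin (STZ), a toxin of the insulin-producing beta cells, at 50 mg/kg on 5 days, and the nondiabetic mice received citrate buffer. From 10 weeks later the mice were gavaged for 8 weeks with arctigenin (ATG), a lignan of burdock fruit, at 40 mg/kg per day in 5% DMSO, or with 5% DMSO as vehicle. Each of the 4 groups (vehicle-treated nondiabetic, ATG-treated nondiabetic, vehicle-treated diabetic and ATG-treated diabetic) had 3 mice, here numbered 1 to 3 within the group. STZ diabetes is a model of insulin deficiency. The study's methods and the extraction protocol describe RNA of isolated glomeruli, whereas another protocol in the sample labels goes on from bead-isolated glomeruli to dissociated cells sorted by EYFP, a fluorescent protein, into positive and negative cells. Such a gate on positive cells would leave out cells that lack EYFP, and the labels name no sorted fraction for these samples.

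Reads on the listed genes ranged from about 23640000 to 29770000 per mouse, and the members had between 336 and 7590 reads in a mouse. Podocyte markers averaged 13.24 to 14.84 and glomerular endothelial markers 12.12 to 13.68 on the log2 scale, and all 29 of them were listed. Proximal tubule and distal nephron markers were present as well, and their mean separated diabetic from nondiabetic mice: it was 12.22 to 12.71 in vehicle-treated nondiabetic mice, 12.90 to 13.47 in ATG-treated nondiabetic mice, 10.32 to 11.61 in vehicle-treated diabetic mice and 11.04 to 11.60 in ATG-treated diabetic mice (41 markers). Vehicle-treated diabetic mouse 3 had the lowest tubule marker mean of all 12 mice and the lowest value of 7 of the 9 members. The widest gaps within a group were between ATG-treated nondiabetic mice 1 and 3, whose variance over all genes was 122.5 times that of read sampling and whose podocyte marker means were 13.24 and 14.41, and between vehicle-treated diabetic mice 2 and 3 (104.6 times). Nos3, the disrupted gene, was listed at log2 values of 10.07 to 11.40, and since the disrupted part is not given in the sources used here, its reads do not check the genotype. In these bulk samples fewer cells of a type and less RNA per cell cannot be told apart.

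All 9 members are protein-coding genes in the RefSeq annotation of GRCm38.p6. On chromosome 2 are Nfe2l2 (Entrez 18024, chr2:75675513-75704663, minus strand) and Srxn1 (Entrez 76650, chr2:152105524-152111376, plus strand). On chromosome 3 is Gclm (Entrez 14630, chr3:122245487-122267215, plus strand). On chromosome 8 are Gsr (Entrez 14782, chr8:33653238-33698162, plus strand), Hmox1 (Entrez 15368, chr8:75093618-75100593, plus strand) and Nqo1 (Entrez 18104, chr8:107388225-107403205, minus strand). On chromosome 9 are Keap1 (Entrez 50868, chr9:21229730-21239332, minus strand) and Gclc (Entrez 14629, chr9:77754535-77794489, plus strand). On chromosome 10 is Txnrd1 (Entrez 50493, chr10:82833951-82897724, plus strand).

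The antioxidant response element is the sequence through which NRF2 is known to act, and its core TGACNNNGC was searched on both strands of the RefSeq promoter windows, which run from 250 bases before to 50 bases after a start site. A window was at hand for 6 of the 9 members (8 windows, since Txnrd1 has 3 starts), and not for Hmox1, Gclc and Gsr. The core was found in 4 members, once each, which are shown because they place the element at the start sites of members described below. Each is printed 5′ to 3′ on the strand that carries the core, with 10 bases on either side, and the capitals mark the core.
Nfe2l2 (chr2:75704885-75704913, minus strand): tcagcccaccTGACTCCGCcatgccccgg
Gclm (chr3:122245413-122245441, minus strand): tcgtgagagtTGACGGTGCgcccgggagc
Txnrd1 (chr10:82859104-82859132, minus strand): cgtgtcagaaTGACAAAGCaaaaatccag
Srxn1 (chr2:152105542-152105570, minus strand): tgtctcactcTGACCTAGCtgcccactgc
Relative to the start site, the core of Nfe2l2 lay at -240 to -232, inside an exon of the neighbouring gene E030042O20Rik. That of Gclm lay at -134 to -126 of the transcript start at position 122245557, which lies inside the gene interval given above, and overlapped no feature of the GENCODE annotation, which was used for all 4 sites. That of Txnrd1 lay at -92 to -84 of its start at position 82859206, inside an intron of a longer Txnrd1 transcript, and that of Srxn1 lay at bases 28 to 36 after the start, in the 5′ UTR. The windows of Keap1 and Nqo1 did not hold these letters. Over all promoters the core stood in 12.4% of 32851 windows and in 14% of 27025 genes, and it was in 4 of the 8 member windows. A match of 6 fixed letters is a description of the sequence and not evidence of binding.

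Levels of different genes were compared per length, as reads divided by the length of the listed transcript in kilobases and by the reads on listed genes (RPKM). In vehicle-treated nondiabetic mice the highest level was that of Gclc, the catalytic subunit of glutamate-cysteine ligase and thus of the limiting step of glutathione synthesis, at 51.2 ± 2.43 (SD, n = 3). Txnrd1 (30.6 ± 0.0332), Srxn1 (30.4 ± 0.604) and Gclm (28 ± 2) followed. The ranges of Txnrd1 and Srxn1 overlapped and the highest Gclm value met the lowest Srxn1 value. Gsr came next at 20.5 ± 4.25, and its lowest mouse, 16.9, was below the highest Hmox1 value, 17.4. Hmox1 (15 ± 2.1), Keap1 (14.3 ± 0.366), Nfe2l2 (14.1 ± 0.995) and Nqo1 (14 ± 1.14) were lowest, and these 4 overlapped with one another. Over all 12 mice the widest ranges of the deposited log2 value were those of Nqo1 (2.06) and Gclc (2.02), and the narrowest were those of Keap1 (0.47) and Nfe2l2 (0.48).

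In diabetic mice Keap1 was higher and Gclc was lower than in nondiabetic mice, while the groups overlapped for Nfe2l2. The mean of the tubule markers was lower in diabetic mice as well (a difference of -1.47 on the log2 scale under vehicle). With that mean in the fit neither gene was called, beside 1.7% of all genes under vehicle. The log2 fold change of Gclc under vehicle then went from -0.71 to -0.03. That of Keap1 went from 0.27 to 0.37 (95% interval 0.15 to 0.60). Without the tubule mean, the call of Gclc under vehicle was lost without any 1 of 5 mice. ATG left all 9 members within their spread in diabetic mice. In nondiabetic mice 6 target genes were higher in each ATG-treated mouse than in each vehicle-treated mouse, but none passed the test over all genes. The groups did not overlap for 34.4% of all genes in either direction. The tubule marker mean was higher with ATG in these mice as well, also without overlap. The values behind these statements follow by role.

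**Figure D1:**
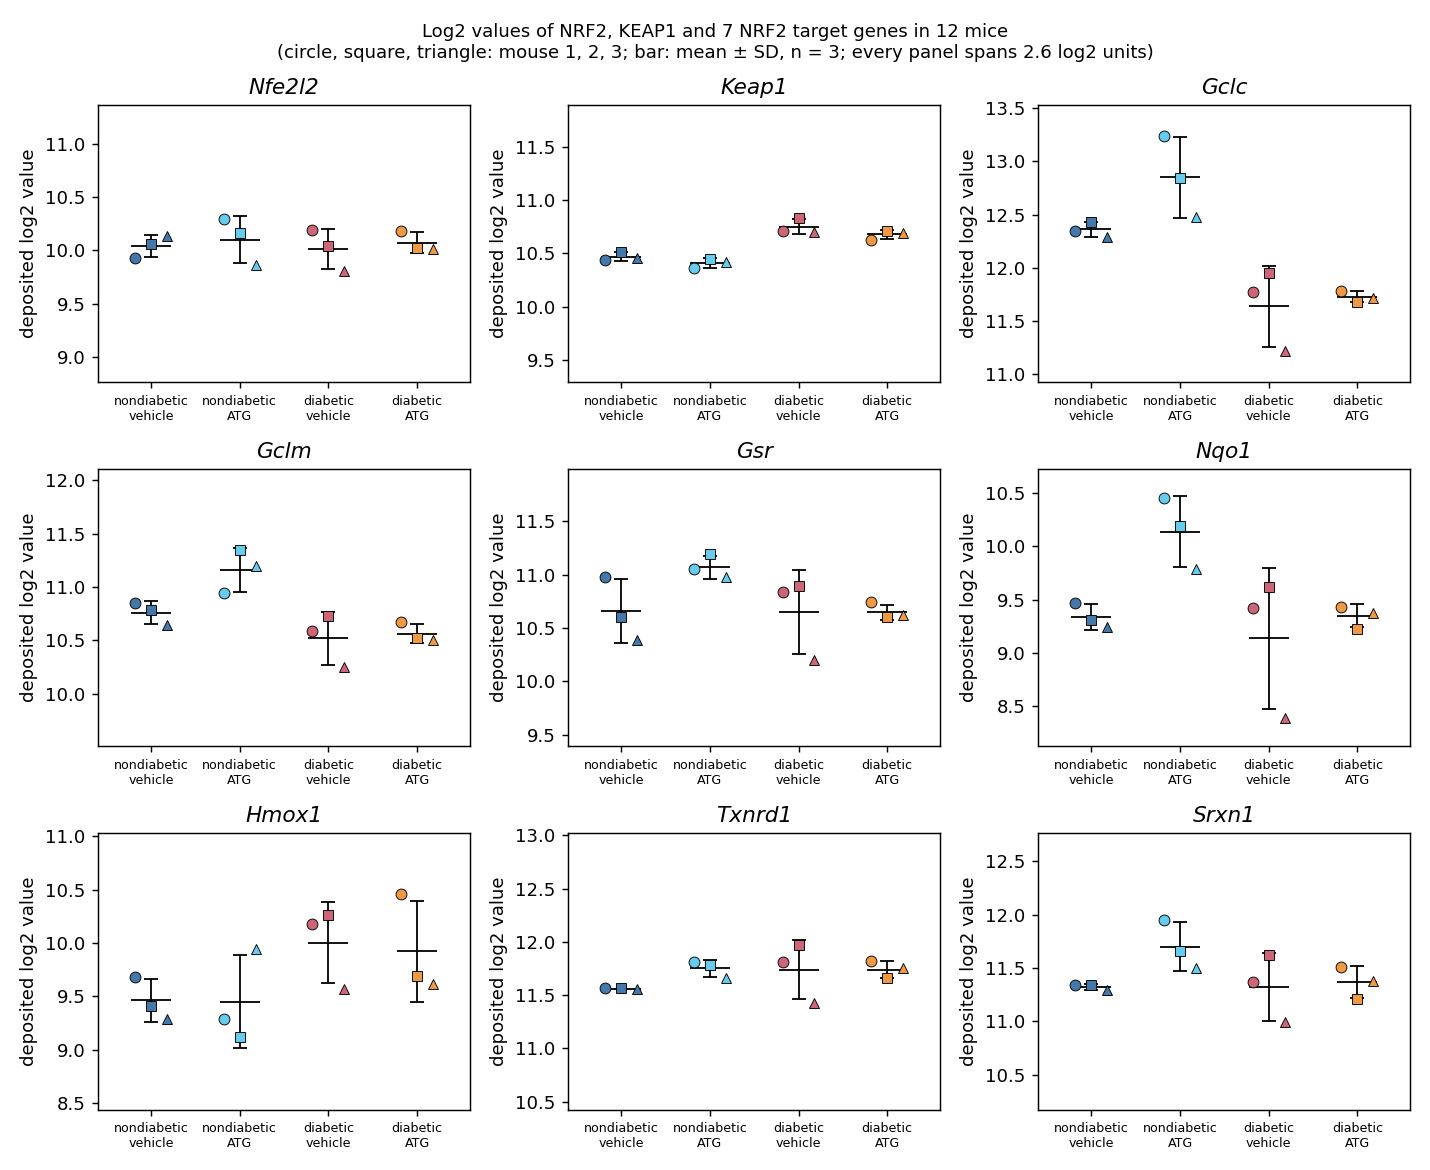
Deposited log2 values (vertical axis, log2 of scaled reads) of the 9 genes in each of the 12 mice, by group (horizontal axis); symbols mark mouse 1, 2 and 3 of a group and bars give the mean ± SD (n = 3). Keap1 is higher in the 6 diabetic mice, Gclc is lower in them, and Gclc and Nqo1 reach their highest values, 13.24 and 10.45, in ATG-treated nondiabetic mouse 1.

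Nfe2l2, the gene of NRF2 itself, had log2 values of 9.93, 10.06 and 10.13 in vehicle-treated nondiabetic mice 1 to 3 and of 10.19, 10.04 and 9.81 in vehicle-treated diabetic mice. With ATG they were 10.29, 10.16 and 9.86 in nondiabetic mice and 10.18, 10.02 and 10.01 in diabetic mice. The 4 groups overlapped throughout. The fitted log2 fold changes lay between -0.03 and 0.06 in the 4 comparisons of groups, with 95% intervals of at most -0.30 to 0.33. With the mean of the tubule markers in the fit the intervals for diabetes were wider, -0.23 to 0.70 with vehicle and -0.25 to 0.85 with ATG.

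Keap1, the inhibitor, had log2 values of 10.44, 10.51 and 10.46 in vehicle-treated nondiabetic mice and 10.71, 10.83 and 10.70 in vehicle-treated diabetic mice. All 3 diabetic mice were above all 3 nondiabetic mice. The increase was 1.21-fold (log2 fold change 0.27, SE 0.0581, limma adjusted p = 0.0123), and it was called without each mouse in turn (adjusted p 0.0101 to 0.0457). With ATG the values were 10.36, 10.45 and 10.42 in nondiabetic mice and 10.63, 10.71 and 10.69 in diabetic mice, again without overlap, and the difference between diabetic and nondiabetic mice was of the same size (0.27, adjusted p = 0.00398). Keap1 had the smallest standard error of the members. Keap1 over Nfe2l2, as a log2 ratio, averaged 0.43 ± 0.0899 (SD, n = 3) without and 0.73 ± 0.19 with diabetes under vehicle, with no overlap (two-sided exact permutation p = 0.1, the smallest that 3 against 3 mice can give). In ATG-treated mice the ratio of the diabetic mice, 0.61 ± 0.14, overlapped that of the nondiabetic mice, 0.31 ± 0.24.

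Gclc had log2 values of 12.35, 12.43 and 12.29 in vehicle-treated nondiabetic mice and of 11.77, 11.95 and 11.22 in vehicle-treated diabetic mice. Each diabetic mouse was below each nondiabetic mouse, and mouse 3 was the lowest. The level in diabetic mice was 0.61 times that in nondiabetic mice (log2 fold change -0.71, SE 0.19, limma adjusted p = 0.0296). This call was lost without vehicle-treated diabetic mouse 1 or 3 or any 1 of the vehicle-treated nondiabetic mice (adjusted p 0.0613 to 0.0999), and without mouse 3 the log2 fold change was -0.50. It was also lost with the mean of the tubule markers in the fit (-0.03, adjusted p = 0.958). With ATG, Gclc was 13.24, 12.84 and 12.48 in nondiabetic mice and 11.78, 11.68 and 11.72 in diabetic mice. The difference between these groups was larger in value (-1.13, SE 0.19, adjusted p = 0.00136) and was called without each mouse in turn.

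Gclm encodes the modifier subunit, which makes the ligase more efficient. Its log2 values were 10.85, 10.78 and 10.64 in vehicle-treated nondiabetic mice and 10.59, 10.73 and 10.25 in vehicle-treated diabetic mice. These groups overlapped (log2 fold change -0.24, SE 0.13, limma adjusted p = 0.225). In ATG-treated mice the values were 10.94, 11.35 and 11.20 without and 10.67, 10.52 and 10.50 with diabetes, a fall that passed the test (-0.60, SE 0.13, adjusted p = 0.00412) and was called without each mouse in turn. The log2 ratio of Gclc to Gclm was 1.60 ± 0.0889 (SD, n = 3) in vehicle-treated nondiabetic and 1.12 ± 0.13 in vehicle-treated diabetic mice, and the groups did not overlap (two-sided exact permutation p = 0.1, the smallest possible).

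Gsr, glutathione reductase, returns oxidised glutathione to its reduced form. Its log2 values were 10.98, 10.60 and 10.39 in vehicle-treated nondiabetic mice and 10.84, 10.89 and 10.20 in vehicle-treated diabetic mice, overlapping groups with a log2 fold change of -0.01 (SE 0.18, limma adjusted p = 0.974). With ATG they were 11.05, 11.19 and 10.98 in nondiabetic mice and 10.74, 10.60 and 10.62 in diabetic mice. The ATG-treated groups did not overlap, but the difference of -0.42 (SE 0.18) missed the threshold (adjusted p = 0.0776). It passed without vehicle-treated diabetic mouse 3, a mouse of neither group that enters the shared estimate of the spread (adjusted p = 0.0186). It also passed with only the ATG-treated groups in the fit.

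Nqo1 encodes a quinone reductase and is the most widely used readout of NRF2. Its log2 values were 9.47, 9.31 and 9.24 in vehicle-treated nondiabetic mice and 9.42, 9.62 and 8.39 in vehicle-treated diabetic mice. Mouse 3 alone set the direction here: the log2 fold change was -0.20 (SE 0.27, limma adjusted p = 0.636) with it and 0.18 without it. With ATG the values were 10.45, 10.19 and 9.79 in nondiabetic mice and 9.43, 9.23 and 9.38 in diabetic mice. The ATG-treated nondiabetic mice were the 3 highest of all 12, and the fall in ATG-treated diabetic against ATG-treated nondiabetic mice was called (-0.79, SE 0.27, adjusted p = 0.0316). That call was lost without ATG-treated nondiabetic mouse 1 or 2, or without any 1 of the ATG-treated diabetic mice (adjusted p 0.0583 to 0.116), and without the 2 nondiabetic mice that carry no number in the labels (-0.64, adjusted p = 0.139).

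Hmox1, heme oxygenase, degrades heme to biliverdin, iron and carbon monoxide, and is induced by heme and by other factors besides NRF2. Its log2 values were 9.68, 9.41 and 9.29 in vehicle-treated nondiabetic mice and 10.18, 10.26 and 9.57 in vehicle-treated diabetic mice. With ATG they were 9.29, 9.12 and 9.94 in nondiabetic mice and 10.46, 9.69 and 9.61 in diabetic mice. Hmox1 had the largest positive log2 fold change of the members with diabetes, but the groups overlapped and neither value passed the test (0.54, SE 0.27, limma adjusted p = 0.181 with vehicle; 0.47, SE 0.27, adjusted p = 0.179 with ATG). The second was called without ATG-treated nondiabetic mouse 3 (0.72, adjusted p = 0.0442). Macrophages express Hmox1, and 15 of 17 macrophage and leukocyte markers were listed (not Cd3e and Cd79a), of which 5 were called higher with diabetes in vehicle-treated mice, beside 10.2% of all genes. Their mean log2 value was 7.98 to 8.66 in vehicle-treated nondiabetic mice, 7.78 to 8.07 in ATG-treated nondiabetic mice, 8.52 to 9.04 in vehicle-treated diabetic mice and 7.99 to 8.90 in ATG-treated diabetic mice. They held 0.014% to 0.0428% of the linear values of a mouse. Of the 6 listed erythrocyte markers 3 were called higher with diabetes in vehicle-treated mice, beside the same 10.2%. Their mean log2 value was 5.94 to 6.19 in vehicle-treated nondiabetic mice, 5.70 to 5.94 in ATG-treated nondiabetic mice, 6.28 to 7.95 in vehicle-treated diabetic mice and 5.90 to 6.92 in ATG-treated diabetic mice. Their share of the linear values was 0.00484% to 0.00553% in vehicle-treated nondiabetic mice, 0.005% to 0.00878% in ATG-treated nondiabetic mice, 0.00458% to 0.00637% in vehicle-treated diabetic mice and 0.00358% to 0.00475% in ATG-treated diabetic mice, so the share overlapped between the vehicle-treated groups and was lower with diabetes in the ATG-treated mice. Slc4a1 is in both the erythrocyte list and the distal nephron list, so this share does not stand for red cells alone. In ATG-treated mice 5 of the 6 erythrocyte markers had log2 fold changes above 0 with diabetes and 1 below 0 (median 1.04). The part of either marker list in the Hmox1 values was not tested.

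Txnrd1 encodes the cytosolic thioredoxin reductase. Its log2 values were 11.57, 11.57 and 11.56 in vehicle-treated nondiabetic mice and 11.81, 11.97 and 11.43 in vehicle-treated diabetic mice. Diabetic mice 1 and 2 were above all the nondiabetic mice and mouse 3 was below them, and the log2 fold change of 0.17 (SE 0.11, limma adjusted p = 0.3) became a call without mouse 3 (0.32, adjusted p = 0.0223). With ATG the values were 11.81, 11.78 and 11.66 in nondiabetic mice and 11.82, 11.66 and 11.75 in diabetic mice, which overlapped.

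Srxn1, sulfiredoxin, restores peroxiredoxins that have been over-oxidised. Its log2 values were 11.34, 11.34 and 11.29 in vehicle-treated nondiabetic mice and 11.37, 11.62 and 10.99 in vehicle-treated diabetic mice, with equal means of 11.32. With ATG they were 11.95, 11.66 and 11.50 in nondiabetic mice and 11.51, 11.21 and 11.38 in diabetic mice. These last groups overlapped only by the 11.50 and 11.51 of a pair of mice, and the difference of -0.34 (SE 0.15) missed the threshold (limma adjusted p = 0.0911). It passed without vehicle-treated diabetic mouse 3 (-0.34, adjusted p = 0.0359) and without ATG-treated nondiabetic mouse 3 (-0.44, adjusted p = 0.0435).

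Counted over the members, 2 of 9 passed the test for diabetes in vehicle-treated mice, 1 higher (Keap1) and 1 lower (Gclc). Over all 14096 genes 18.9% passed (10.2% higher, 8.63% lower), so the members' share was near that of all genes. The same 2 members were the ones whose groups did not overlap, against 41.7% of all genes. The median log2 fold change of the members was -0.01, beside 0.01 for all genes. In ATG-treated mice 4 of 9 members passed for diabetes, Keap1 higher and Gclc, Gclm and Nqo1 lower, against 46.7% of all genes (25.9% higher, 20.8% lower). The groups did not overlap for 5 members, these 4 and Gsr, against 56.1% of all genes, and the median of the members was -0.34 beside 0.05. The 4 groups each enter more than 1 comparison, so the comparisons are not independent.

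**Figure D2:**
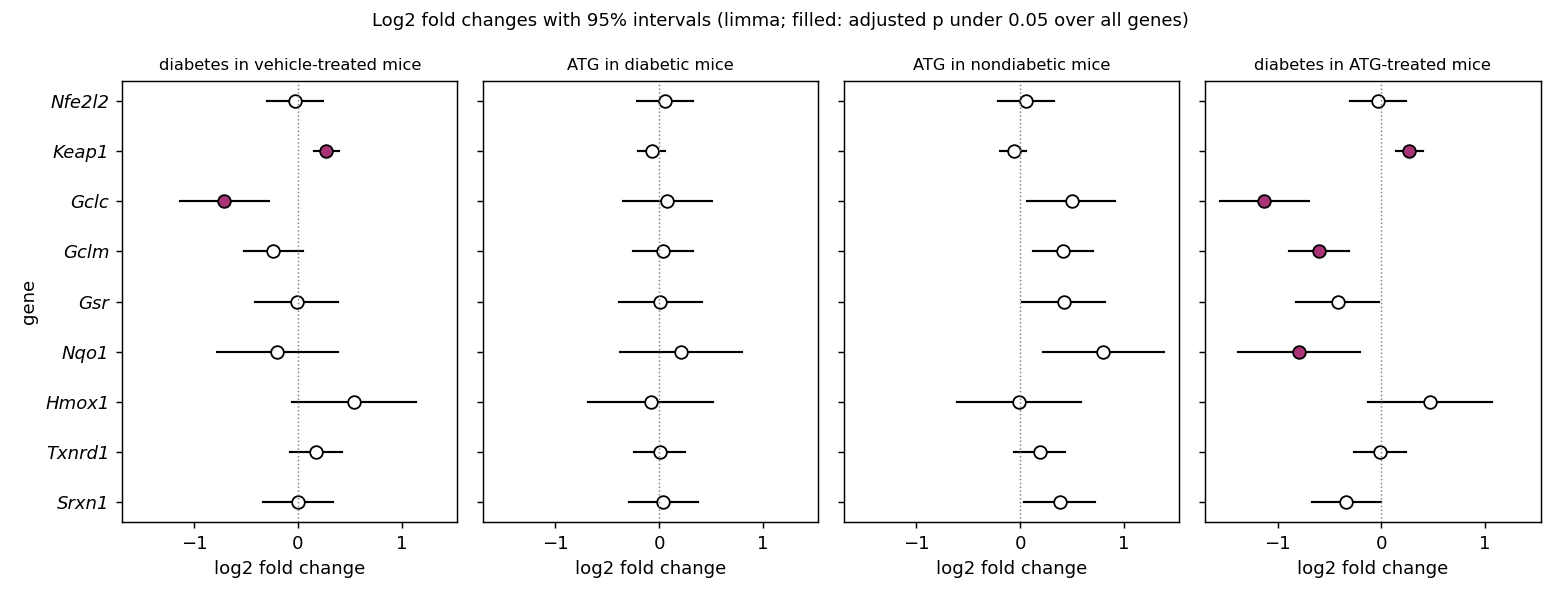
Log2 fold changes (horizontal axis) of the 9 genes (vertical axis) in 4 comparisons of 3 against 3 mice, with 95% intervals from limma; filled points passed an adjusted p of 0.05 over all genes. Keap1 is filled under diabetes with either treatment, no point is filled under ATG, and the ATG intervals in diabetic mice all cover 0.

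ATG against vehicle in diabetic mice asks what the compound does to the diabetic glomerulus. None of the 9 members passed the test, and the groups overlapped for all 9, whereas they did not overlap for 10.2% of all genes. The log2 fold changes ran from -0.08 (Hmox1) to 0.21 (Nqo1) with a median of 0.04, beside -0.01 for all genes. Over all genes limma likewise called 0 (0%, lowest adjusted p = 0.248), limma-voom called 0, and 636 genes (4.51%) had an unadjusted p under 0.05. None of the members was among those 636. The intervals bound what could have been missed: for Keap1 the 95% interval was -0.20 to 0.06, for Txnrd1 -0.24 to 0.25, for Gclm -0.25 to 0.33 and for Gclc -0.35 to 0.51 on the log2 scale. They were widest for Hmox1 (-0.69 to 0.52) and Nqo1 (-0.38 to 0.80), for which these 6 mice set the loosest bounds. Without vehicle-treated diabetic mouse 3 the log2 fold change of Nqo1 went from 0.21 to -0.17 and that of Gsr from 0.01 to -0.21, and neither was called.

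In nondiabetic mice Nqo1 was 1.75-fold higher with ATG (log2 fold change 0.80, SE 0.27, limma adjusted p = 0.0912), Gclc 1.41-fold (0.50, SE 0.19, adjusted p = 0.127) and Gclm 1.33-fold (0.41, SE 0.13, adjusted p = 0.084). Gsr was 1.34-fold (0.42, SE 0.18, adjusted p = 0.152) and Srxn1 1.3-fold (0.38, SE 0.15, adjusted p = 0.132). In these 5 genes and Txnrd1 (0.19, adjusted p = 0.271) every ATG-treated mouse was above every vehicle-treated mouse. None of the 9 members passed the adjusted test, beside 5.22% of all genes, while 5 of 9 had an unadjusted p under 0.05 and a higher level, beside 10.7% of all genes. The groups did not overlap for 6 of 9 members, all higher, beside 34.4% of all genes in either direction. The median log2 fold change of the members was 0.38 against -0.04 for all genes. Nfe2l2 (0.06), Keap1 (-0.06) and Hmox1 (-0.01) were level within their spread.

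Several of these values lay close to the threshold and were decided by a single library. Without ATG-treated nondiabetic mouse 3, Nqo1 (0.98, limma adjusted p = 0.0337) and Gclc (0.68, adjusted p = 0.0263) were called. Without vehicle-treated diabetic mouse 3, which enters only the estimate of the spread, Nqo1 (0.80, adjusted p = 0.017) and Gclm (0.41, adjusted p = 0.0418) were called. The tubule marker mean was also higher in all 3 ATG-treated than in all 3 vehicle-treated nondiabetic mice, by 0.69 on the log2 scale (two-sided exact permutation p = 0.1, the smallest possible). Of the mesangial and contractile markers 8 of 12 were called lower and none higher, and their mean log2 value was 11.88 to 12.24 with vehicle and 10.98 to 11.40 with ATG. Of the glomerular endothelial markers 7 of 14 were called lower and none higher. Over all 14096 genes 636 were called lower and 100 higher. With only the nondiabetic groups in the fit limma called 0 genes in all, these markers included (3968 genes at an unadjusted p under 0.05), and the 636 genes called lower became 60 without vehicle-treated nondiabetic mouse 3 and 2467 without ATG-treated nondiabetic mouse 3, the lowest and highest counts with 1 mouse left out. None of the 15 podocyte markers was called, and their mean was 14.26 to 14.39 with vehicle and 13.24 to 14.41 with ATG. As a covariate, the tubule mean gave log2 fold changes of 0.29 for Nqo1, 0.18 for Gclc, 0.18 for Gclm, 0.15 for Srxn1, 0.06 for Gsr and -0.01 for Txnrd1.

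The difference between the ATG effect in diabetic and in nondiabetic mice was below 0 for all 9 members, with a median of -0.34 beside 0.01 for all genes. None of the 9 passed, beside 0.546% of all genes, and the lowest adjusted p was 0.429, for Gclm (-0.37, SE 0.19). For Nqo1 the difference was -0.60 (SE 0.38, limma adjusted p = 0.498). An ATG effect that differed between diabetic and nondiabetic mice was therefore not shown for any member.

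Tubule markers moved with diabetes more than any member did. The difference of their mean between vehicle-treated diabetic and vehicle-treated nondiabetic mice was -1.47 on the log2 scale, with no overlap (two-sided exact permutation p = 0.1, the smallest possible). All 25 proximal tubule markers were listed in every mouse, and 20 were called lower and none higher. Of the distal nephron markers 9 of 16 were called lower, and 7 of 14 glomerular endothelial markers were called higher. Over all genes 8.63% were called lower and 10.2% higher. The proximal tubule markers held 0.551% to 0.944% of the linear values in vehicle-treated nondiabetic mice, 1.05% to 1.85% in ATG-treated nondiabetic mice, 0.141% to 0.315% in vehicle-treated diabetic mice and 0.201% to 0.393% in ATG-treated diabetic mice. Proximal tubule cells are known to express glutamate-cysteine ligase, and in Gclc as in the tubule mean vehicle-treated diabetic mouse 3 was lowest and the 3 ATG-treated nondiabetic mice were highest. Within groups the order often differed: ATG-treated diabetic mouse 2 had the highest tubule mean of its group (11.60) and the lowest Gclc value (11.68), and in ATG-treated nondiabetic mice the tubule mean was highest in mouse 2 (13.47) and Gclc in mouse 1 (13.24). The diabetic mice (10.32 to 11.61) and nondiabetic mice (12.22 to 13.47) shared no part of the range of the tubule mean, so the covariate and diabetes can be separated only by extending the relation within groups across that gap.

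**Figure D3:**
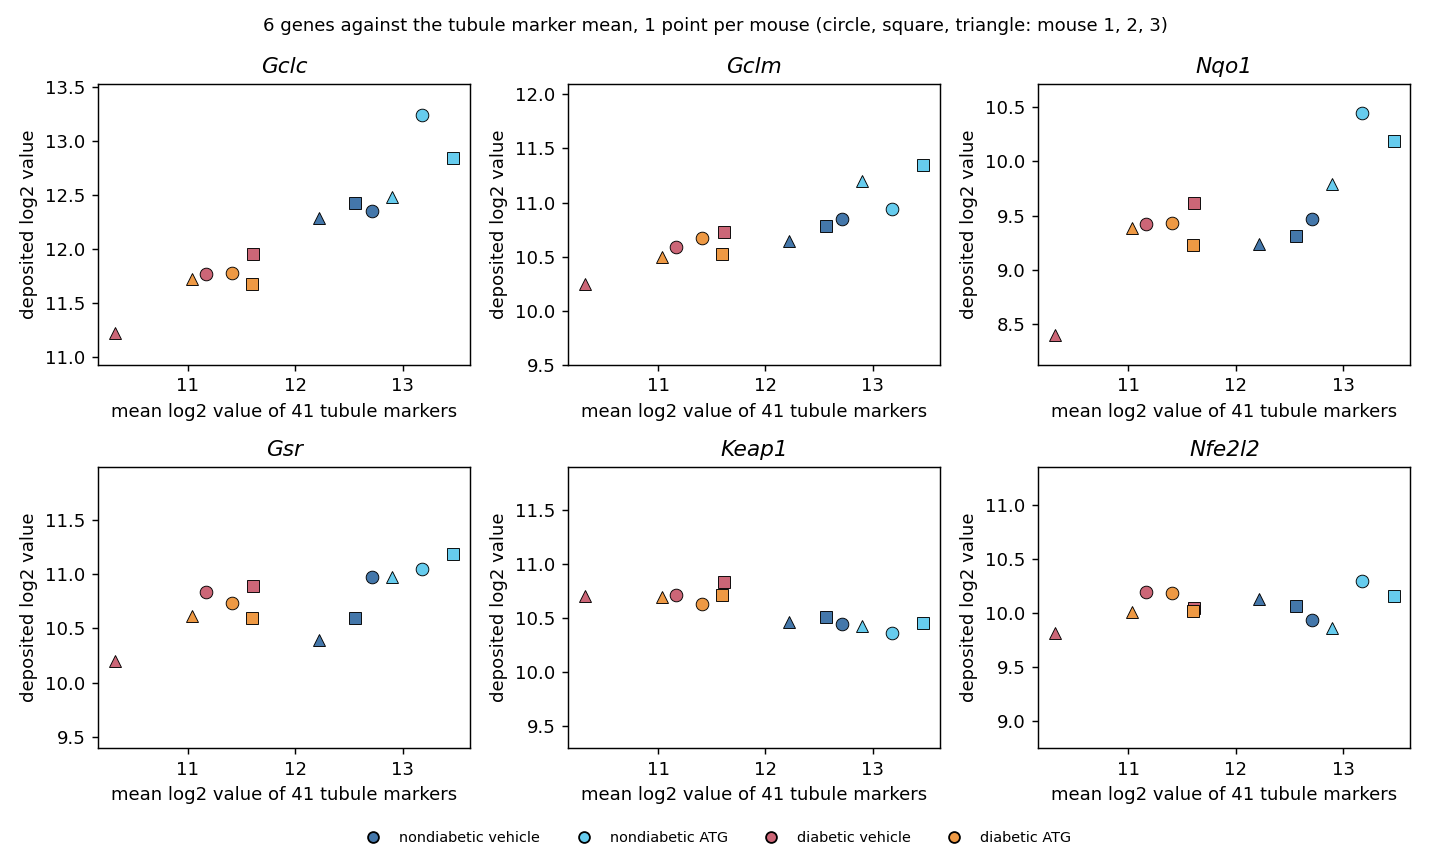
Deposited log2 value of 6 genes (vertical axes) against the mean log2 value of 41 tubule markers (horizontal axis), 1 point per mouse, coloured by group. Gclc runs from 11.22 to 13.24 as the tubule mean goes from 10.32 to 13.18 in the same mice, Keap1 is higher in the diabetic mice on the left, and Nfe2l2 stays between 9.81 and 10.29.

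With the tubule mean in the fit, no member was called for diabetes in vehicle-treated mice, beside 1.7% of all genes, and none in ATG-treated mice, beside 0.234%. The log2 fold change of Gclc in vehicle-treated mice went from -0.71 to -0.03 (95% interval -0.63 to 0.57). That of Keap1 went from 0.27 to 0.37 (0.15 to 0.60, SE 0.10, limma adjusted p = 0.0782), and it was no longer called. Gsr became 0.75 (0.32 to 1.19, adjusted p = 0.0721), Txnrd1 0.60 (0.27 to 0.92, adjusted p = 0.0618) and Nqo1 0.89 (0.20 to 1.59, adjusted p = 0.134). In all, 8 of 9 members then had a value above 0. In ATG-treated mice Gclc went from -1.13 to -0.27, Gclm from -0.60 to 0.01 and Nqo1 from -0.79 to 0.57, whereas Keap1 was 0.40 (0.13 to 0.66, adjusted p = 0.149). With the tubule mean in the fit Nqo1, Gclm, Gsr and Nfe2l2 changed direction in both diabetes comparisons and Txnrd1 and Srxn1 in ATG-treated mice only, while Keap1 and Hmox1 stayed above 0 and Gclc below 0 in both (in ATG-treated mice -0.27, 95% interval -0.98 to 0.44). The part of tubule RNA in the members' values was not tested beyond this fit.

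**Figure D4:**
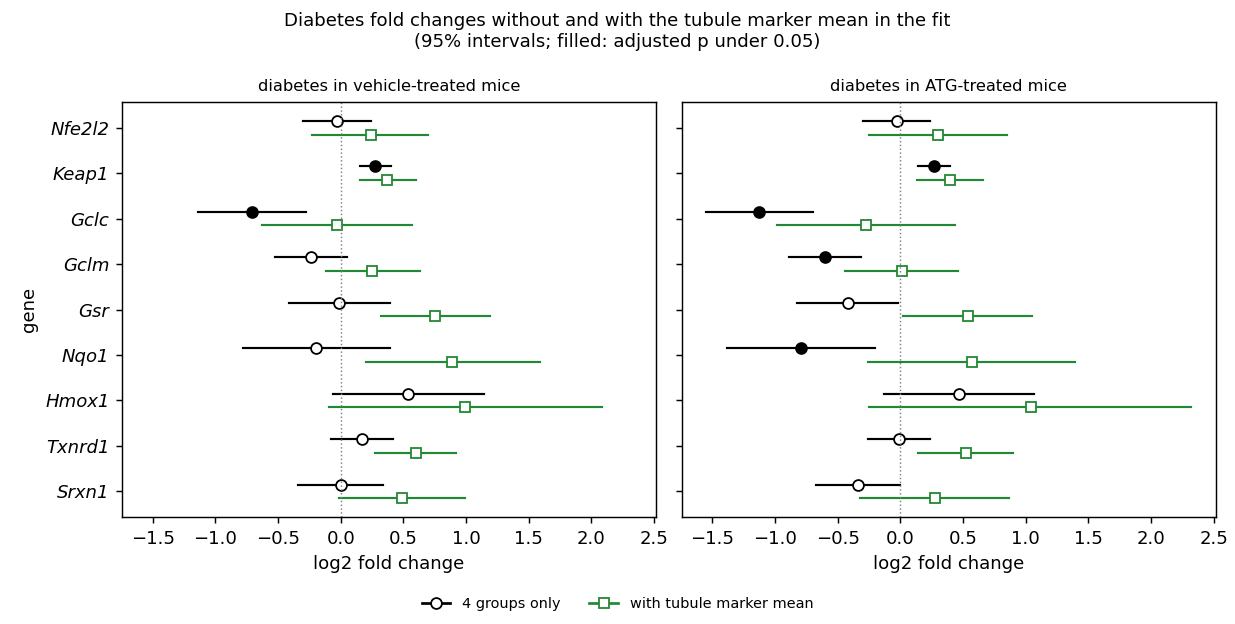
Log2 fold changes with diabetes (horizontal axis, 95% intervals) of the 9 genes (vertical axis) from the fit of the 4 groups (circles) and from the fit with the tubule marker mean added (squares); filled points passed an adjusted p of 0.05. In vehicle-treated mice Gclc moves from -0.71 to -0.03 and Keap1 from 0.27 to 0.37, and no square is filled.

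Other genes of the pathway were followed in 7 lists, of which 124 of 131 genes were listed. With diabetes in vehicle-treated mice 26 of the 124 passed the test, 15 higher and 11 lower (21%, beside 18.9% of all genes), with a median of -0.12. The count was 18 (12 higher) without vehicle-treated diabetic mouse 3, 12 without the 2 unnumbered nondiabetic mice and 8, all higher, with the tubule mean in the fit, of which 3 were among the 26. Left out in turn, vehicle-treated nondiabetic mouse 2 gave the lowest count, 5, vehicle-treated diabetic mouse 1 gave 7, vehicle-treated nondiabetic mouse 1 gave 11 and mouse 3 gave 17.

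Among the regulators and partners of NRF2, 4 of 24 passed, all higher (16.7%, beside 18.9% of all genes), while 12 of the 24 had log2 fold changes above 0 and 12 below 0. Cdkn1a, which encodes the cell cycle inhibitor p21, a protein also known to bind NRF2, rose 3.33-fold: its log2 values were 11.70, 10.82 and 11.16 in vehicle-treated nondiabetic mice and 12.64, 13.44 and 12.82 in vehicle-treated diabetic mice (log2 fold change 1.74, SE 0.26, limma adjusted p = 0.00375). No gene of the 7 lists had a larger increase. Pgam5, a mitochondrial phosphatase bound by KEAP1, was 0.28 higher (adjusted p = 0.0189) and Brca1, a DNA repair gene, 0.57 higher (adjusted p = 0.0262). Maff, a small MAF gene, was the remaining call (0.87, adjusted p = 0.0495). Once the tubule mean was added Cdkn1a was 2.18, Maff 1.06, Brca1 0.56 and Pgam5 0.14, and of these only Cdkn1a passed (adjusted p = 0.0485).

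Of 27 listed genes of glutathione synthesis and use, 1 passed: Gstz1, which degrades a tyrosine metabolite, fell by 0.62 on the log2 scale (limma adjusted p = 0.0388). That is 3.7% of the list, beside 18.9% of all genes, and 19 of the 27 values were below 0, with a median of -0.15. In the thioredoxin and peroxiredoxin list 2 of 15 passed (13.3%). Prdx4, the peroxiredoxin of the endoplasmic reticulum, rose from 9.54, 9.46 and 9.51 to 10.06, 9.80 and 10.17 (0.51, adjusted p = 0.00913). Cat, the peroxisomal catalase, fell from 12.99, 12.97 and 12.76 to 12.57, 12.53 and 12.31 (-0.43, adjusted p = 0.0309). None of the 3 passed with the tubule mean in the fit: Gstz1 turned to 0.23, Cat went to 0.02 and Prdx4 to 0.24. Gclc, Gclm and Gsr were counted apart from these lists.

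Enzymes that make NADPH, the reductant used by both glutathione and thioredoxin reductase, passed in 5 of 11 cases (beside 18.9% of all genes), 2 higher and 3 lower. Mthfd2 of mitochondrial folate metabolism (0.84, limma adjusted p = 0.0227) and Pgd of the pentose phosphate pathway (0.32, adjusted p = 0.0391) rose. Nnt, the mitochondrial transhydrogenase (-1.04, adjusted p = 0.0147), Me1, the cytosolic malic enzyme (-0.88, adjusted p = 0.03), and Idh2 (-0.65, adjusted p = 0.0498) fell. These values are mRNA levels, and whether a working enzyme was made from them was not measured. With the tubule mean in the fit Nnt was -0.28, Me1 -0.02 and Idh2 0.10, none of them called, while Mthfd2 (1.62, adjusted p = 0.0339) and Pgd (0.64, adjusted p = 0.0482) passed. Me1 is a well known NRF2 target, and its values were 11.37, 11.13 and 10.65 in vehicle-treated nondiabetic mice and 10.35, 10.28 and 9.86 in vehicle-treated diabetic mice.

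In heme and iron handling 3 of 11 passed (27.3%, beside 18.9% of all genes). Slc48a1, a heme transporter (0.43, limma adjusted p = 0.0199), and Blvrb, a biliverdin reductase (0.31, adjusted p = 0.0339), were higher, and Ireb2, an iron-responsive regulator, was lower (-0.24, adjusted p = 0.0333). Their values became 0.16, 0.35 and -0.42 with the tubule mean in the fit, and none passed. Of the detoxification enzymes and exporters 10 of 27 passed (37%, beside the same 18.9%), 5 in each direction. Cbr3, a carbonyl reductase, rose from 7.36, 7.23 and 7.42 to 8.14, 7.95 and 7.90 (0.66, adjusted p = 0.0137), and Ephx1, the microsomal epoxide hydrolase (0.44, adjusted p = 0.0157), and Akr1b8 (0.64, adjusted p = 0.0309) rose as well. The carboxylesterases Ces1f (-2.41, adjusted p = 0.0123) and Ces1d (-1.54, adjusted p = 0.0114) and the aldehyde dehydrogenase Aldh9a1 (-0.63, adjusted p = 0.0178) fell. With the tubule mean in the fit the 3 that fell were at -0.08, 0.04 and -0.06, Cbr3 was at 0.67, Akr1b8 at 0.90 and Ephx1 at 0.29, and none of the 6 passed.

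Of the remaining 9 reported NRF2-responsive genes only Trim16, a ubiquitin ligase, passed (11.1%, beside 18.9% of all genes). It rose from 8.71, 8.61 and 8.94 to 9.52, 9.56 and 9.39 (log2 fold change 0.73, SE 0.116, limma adjusted p = 0.00448), and with the tubule mean it was 0.72 and no longer passed (adjusted p = 0.0989).

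**Figure D5:**
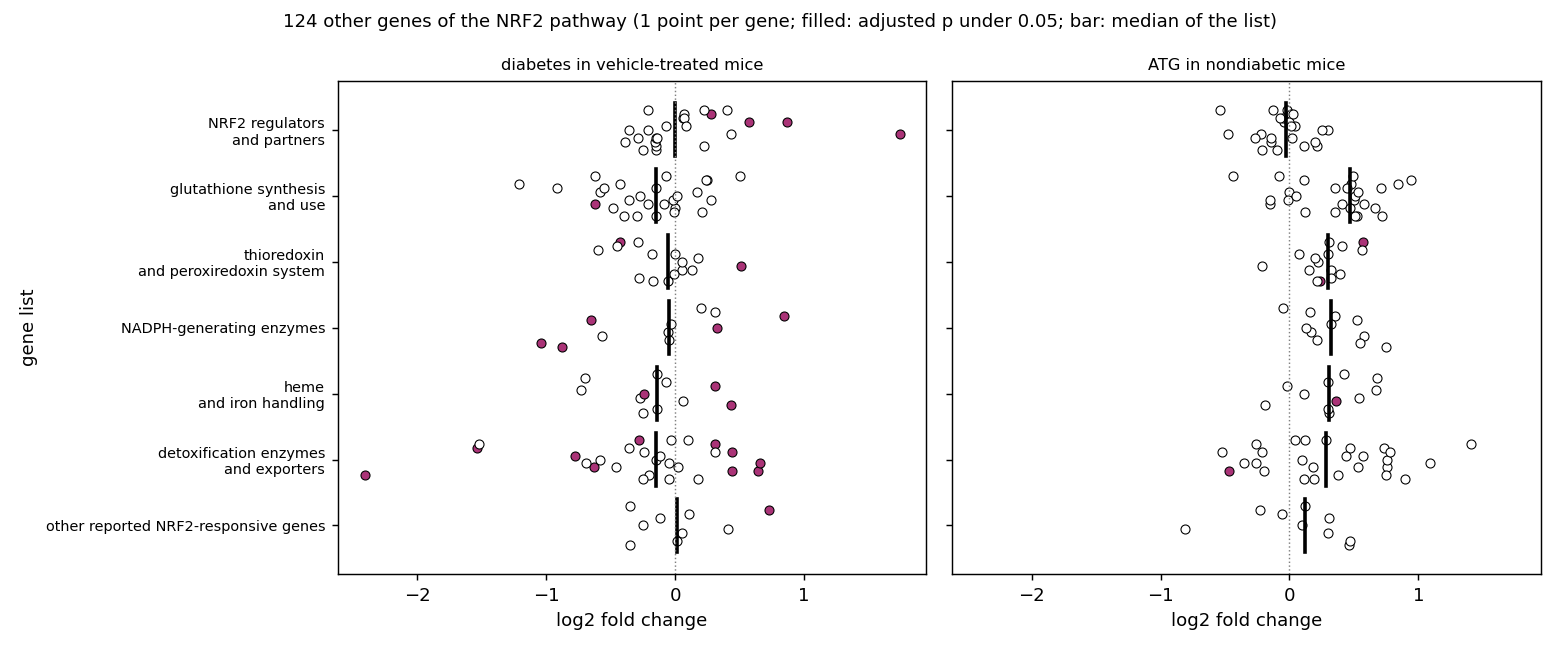
Log2 fold changes (horizontal axis) of the 124 listed genes in 7 NRF2 pathway lists (vertical axis) with diabetes in vehicle-treated mice (left) and with ATG in nondiabetic mice (right); each point is a gene, filled points passed an adjusted p of 0.05 and bars are medians. On the left Cdkn1a is farthest to the right at 1.74 and Ces1f farthest to the left at -2.41; on the right the bar of the glutathione list is at 0.47.

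For ATG in diabetic mice 0 of the 124 genes were called, and 0 over all genes, and the median log2 fold change of the 124 was 0.02. In nondiabetic mice 4 of 124 passed (3.23%, beside 5.22% of all genes). This count changed with single libraries: it was 22 without vehicle-treated diabetic mouse 3, 28 without ATG-treated nondiabetic mouse 3, 2 without ATG-treated diabetic mouse 2, 1 without ATG-treated nondiabetic mouse 1, and 0 without ATG-treated nondiabetic mouse 2, without any 1 vehicle-treated nondiabetic mouse, or with the tubule mean in the fit. With only the nondiabetic groups in the fit no gene of all those tested was called, these 4 included. Cat rose to 13.38, 13.70 and 13.35 (0.57, limma adjusted p = 0.0259), Prdx3, the mitochondrial peroxiredoxin, rose from 12.35, 12.34 and 12.32 to 12.60, 12.57 and 12.57 (0.24, adjusted p = 0.0308), and Blvra, the other biliverdin reductase, rose by 0.36 (adjusted p = 0.038). Ephx1 fell from 12.84, 12.81 and 12.89 to 12.18, 12.29 and 12.64 (-0.47, adjusted p = 0.0263). None passed with the tubule mean in the fit, where the values were 0.36 for Cat, 0.25 for Prdx3, 0.22 for Blvra and -0.41 for Ephx1. The list medians were above 0 for 6 of the 7 lists, highest for glutathione synthesis and use (0.47, of which 22 of 27 genes were above 0 and none was called), and -0.03 for the regulators, beside -0.04 for all genes. With diabetes in ATG-treated mice 74 of 124 passed, 20 higher and 54 lower (59.7%, beside 46.7% of all genes), and 1 passed with the tubule mean in the fit. Cdkn1a (2.11, adjusted p = 0.000288), Ephx1 (0.80, adjusted p = 0.000289) and Prdx4 (0.69, adjusted p = 0.000569) had the lowest p among those that rose, and Cat (-0.95, adjusted p = 0.000321), Aldh9a1 (-1.07, adjusted p = 0.000487) and Ggct, an enzyme of the gamma-glutamyl cycle (-0.75, adjusted p = 0.000569), those that fell. None of these 6 passed with the tubule mean in the fit, where Cdkn1a was 2.66, Ephx1 0.62, Prdx4 0.36, Cat -0.38, Aldh9a1 -0.36 and Ggct -0.69. For the difference between the ATG effects 0 of 124 passed.

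The genes whose log2 values across the 12 mice were most like a member were described by Pearson's r over all 12 mice, which share the 4 groups, and it carries no test. For Gclc these were Oat (ornithine aminotransferase, r = 0.996), Pygl (glycogen phosphorylase, r = 0.994) and Mthfd1 (a folate enzyme, r = 0.994), and for Gclm Lap3 (r = 0.982), the monocarboxylate transporter Slc5a8 (r = 0.974) and Fbxo36 (r = 0.969). For Keap1 they were Ddias (r = 0.98), the mitotic kinesin Kif20a (r = 0.974) and the replication helicase subunit Mcm5 (r = 0.969), and for Nfe2l2 Ptgfrn (r = 0.923), Mamdc4 (r = 0.922) and Tbc1d2 (r = 0.872). No gene appeared for more than 1 of these 4 members.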

How the data were processed

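Poly(A) mRNA of glomeruli from 12 mice was sequenced. The authors deposited, for each mouse, a log2 value per gene, which is the log2 of reads multiplied by 1 factor per library and is not divided by gene length. After division by the smallest step of each library, 83.4% to 84.1% of the linear values under 2000 came out as whole reads (tolerance 0.02), and every listed gene reached 100 in some mouse. That list, and so any filter behind it, is the authors' own. The submitters' processing notes name mm10 and limma, and the aligner and counter are not given in the sources used here. Whether counting used strand is not given either, so reads of Nfe2l2 and of the neighbouring gene E030042O20Rik may not be fully separated.

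Groups came from the labels, and each mouse is a separate animal. All 12 mice entered 1 limma fit (version 3.58.1, R 4.3.3) of the 4 groups with a mean-variance trend, with 5 contrasts, two-sided, and Benjamini-Hochberg adjustment over all 14096 genes at 0.05. The fit was tested on simulated data. A value between 2 groups was also compared by exact permutation, which cannot go below 0.1. Tables and plots were made in Python 3.11.15 with matplotlib 3.10.9, and promoter windows are RefSeq's of GRCm38.p6. The members, lists and alternatives were chosen with earlier results of these data known. Named pathway genes are, per list, up to 3 in each direction with the lowest p among those called for diabetes in vehicle-treated mice and, in other contrasts, up to 3 per direction, together with the 3 genes most like Nfe2l2 and like 3 called members; Maff was added after its value was seen. In nondiabetic mice the number in the labels differs from mouse 1 to 3 used here, and the rest of the name is particular to a group, so any shared handling of a group and its condition cannot be told apart.

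Alternatives were at least 10 reads in every mouse (14087 genes), only the groups compared, the label number as a replicate block, each mouse left out, both unnumbered nondiabetic mice left out, the mean of 41 tubule markers as a covariate, no trend, median-ratio scaling, limma-voom on recovered reads and a pseudocount of 10.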

Additional observations from a re-analysis of the deposited data

How the results depend on the processing

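No member was called for ATG in diabetic mice, or for the difference between the ATG effects, under any alternative run, and only the groups compared gives no value for that difference. For diabetes in vehicle-treated mice the count of 2 members called became 1 with the replicate block (Keap1), 0 with the tubule mean as a covariate and 1 to 2 with each mouse left out. For ATG in nondiabetic mice 0 became 0 to 2 with a mouse left out. For diabetes in ATG-treated mice 4 became 0 with the tubule mean and 3 to 6 with a mouse left out. With only the groups compared that count was 5 (Gsr added). It was 3 (Nqo1 lost) with the replicate block and without the unnumbered mice. The 26 pathway genes became 11 with the replicate block, 12 without the unnumbered mice, 8 with the tubule mean and 5 to 36 with a mouse left out. Same-numbered diabetic mice of both treatments deviated from their group means with correlations of 0.315, 0.054 and 0.339. Differently numbered diabetic mice of opposite treatments had -0.334 to 0.198, and other same-numbered pairs -0.590 to 0.254. The numbers were not taken to pair the mice, and whether same-numbered diabetic mice shared handling was not tested. Under the replicate block Gclc with diabetes in vehicle-treated mice was -0.51 (limma adjusted p = 0.119) and Nqo1 with diabetes in ATG-treated mice -0.51 (adjusted p = 0.16). Over all genes the 2659 calls for diabetes in vehicle-treated mice became 1375 with the block and 240 with the tubule mean. With a mouse left out they were 801 to 3357, those for ATG in nondiabetic mice 60 to 3531, those for diabetes in ATG-treated mice 4766 to 7451 and those for the difference 6 to 770. The 736 for ATG in nondiabetic mice (100 higher) became 538 (130 higher) with median-ratio scaling, 0 with only the groups compared (limma, 3968 at an unadjusted p under 0.05), 8 without the unnumbered mice and 40 with the tubule mean. The 6585 for diabetes in ATG-treated mice became 4314 without the unnumbered mice and 33 with the tubule mean, and the 77 for the difference became 8, 6 and 35 with the block, without those mice and with the tubule mean, and 19 without the trend.

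Some values changed sign. With the replicate block these were, for diabetes in vehicle-treated mice, Nfe2l2 (0.06), Nqo1 (0.09) and Gsr (0.18), and in ATG-treated mice Nfe2l2 (0.05) and Txnrd1 (0.08). Without the unnumbered mice they were Gsr (0.15) for diabetes with vehicle, Nfe2l2 (-0.08) and Hmox1 (0.18) for ATG in nondiabetic mice, Nfe2l2 (0.06) and Txnrd1 (0.02) for diabetes with ATG, and Nfe2l2 (0.14) for the difference. Median-ratio scaling turned Srxn1 for diabetes with vehicle (-0.02) and Hmox1 for ATG in nondiabetic mice (0.04), and limma-voom turned Txnrd1 for diabetes with ATG (0.01) and Nfe2l2 (0.01) and Keap1 (0.01) for the difference. The tubule mean turned, for diabetes with vehicle, Nfe2l2 (0.24), Nqo1 (0.89), Gclm (0.25) and Gsr (0.75), for diabetes with ATG, Nfe2l2 (0.30), Nqo1 (0.57), Gclm (0.01), Txnrd1 (0.52), Srxn1 (0.28) and Gsr (0.54), for ATG in diabetic mice, Nfe2l2 (-0.00107), Nqo1 (-0.03), Gclc (-0.07), Gclm (-0.07), Txnrd1 (-0.09), Srxn1 (-0.06) and Gsr (-0.16), for ATG in nondiabetic mice, Nfe2l2 (-0.06) and Txnrd1 (-0.01), and for the difference Nfe2l2 (0.06), Keap1 (0.02) and Hmox1 (0.04). With a mouse left out the ranges that crossed 0 were, for diabetes with vehicle, Nfe2l2 -0.11 to 0.07, Nqo1 -0.43 to 0.18, Srxn1 -0.15 to 0.17 and Gsr -0.14 to 0.21; for ATG in diabetic mice, Nfe2l2 -0.04 to 0.14, Nqo1 -0.17 to 0.45, Hmox1 -0.35 to 0.07, Gclc -0.13 to 0.23, Gclm -0.10 to 0.14, Txnrd1 -0.14 to 0.12, Srxn1 -0.13 to 0.19 and Gsr -0.21 to 0.13. For ATG in nondiabetic mice they were Nfe2l2 -0.03 to 0.18 and Hmox1 -0.26 to 0.15, for diabetes with ATG Nfe2l2 -0.15 to 0.06 and Txnrd1 -0.05 to 0.03, and for the difference Nfe2l2 -0.13 to 0.09, Keap1 -0.03 to 0.04 and Hmox1 -0.34 to 0.17. The cause of these changes was not tested.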
